A study of Mus musculus with 19 samples.

Results

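The mRNAs of 7 small heat shock protein genes, Cryab, Hspb1, Hspb2, Hspb3, Hspb6, Hspb7 and Hspb8, were followed through the differentiation of mouse muscle precursor cells in culture. The members were taken as a named list, and their estimated counts were summed over the transcripts that GENCODE M21 gives each symbol. They are 7 of 35598 genes with a deposited value and 7 of the 15123 genes that passed the filter on low counts, so no member was left out of a test. The libraries came from primary myoblasts of mouse hind limb, either wild type (WT) or deficient in Glud1, the gene for the mitochondrial enzyme glutamate dehydrogenase, and the study compared the genotypes along the myogenic program. WT cells were sampled as proliferating myoblasts in growth medium at 24 h (3 libraries), as differentiated myotubes at 48 h (3 libraries) and as fused myotubes at 72 h (4 libraries). The Glud1-deficient cells, written here as KO-labelled, were sampled at the same times with 3, 2 and 4 libraries. Strain, age and sex of the animals, the way Glud1 was deleted, and whether replicates are separate animals or dishes are not given in the sources used here, so p-values measure the spread between these libraries, which may be technical.

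Small heat shock proteins are short chaperones that share an alpha-crystallin domain, assemble into oligomers and hold unfolding proteins without using ATP. Held proteins can be passed to the ATP-driven HSP70 machinery for refolding or to degradation. Striated muscle is one of the tissues richest in them, where several members bind desmin, titin, filamin or actin at the Z-disc of the sarcomere, and mutations of CRYAB or HSPB8 in people cause myopathies. Cryab (alpha-B crystallin) and Hspb1 are the broadly expressed members, Hspb2 and Hspb3 form a complex with each other in muscle, Hspb7 is found mainly in heart and skeletal muscle and binds filamin C, Hspb8 works with the co-chaperone Bag3 in the autophagic removal of damaged proteins, and Hspb6 is a phosphoprotein of smooth, heart and skeletal muscle.

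In GENCODE M21 (GRCm38) the members lie at 6 places in the genome, since Cryab at chr9:50751325-50756636 on the plus strand and Hspb2 at chr9:50751078-50752354 on the minus strand adjoin. Hspb1 and Hspb8 are far apart on chromosome 5, at chr5:135887919-135889563 on the plus strand and chr5:116408491-116422864 on the minus strand. Hspb3 is at chr13:113662896-113663676 on the minus strand, Hspb6 at chr7:30552178-30555443 on the plus strand and Hspb7 at chr4:141420779-141425311 on the plus strand.

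The stretches of DNA just upstream of the start sites are printed for the members that have a promoter entry. Whether their letters bear on the changes in mRNA was not tested. RefSeq promoter entries (build GRCm38.p6) were matched by symbol for 5 of the 7 members, with 6 entries, and the 250 bases before each start were searched on both strands. Capitals mark an 8-letter pair of heat shock factor half-sites (GAANNTTC), a TATA box (TATAAA) or a MEF2 site. The windows are chr5:135887669-135887918 on the plus strand for Hspb1, chr13:113663677-113663926 on the minus strand for Hspb3, chr7:30553051-30553267 on the plus strand for Hspb6, chr4:141420529-141420778 on the plus strand for Hspb7 and chr5:116422865-116423114 on the minus strand for Hspb8.
Hspb1: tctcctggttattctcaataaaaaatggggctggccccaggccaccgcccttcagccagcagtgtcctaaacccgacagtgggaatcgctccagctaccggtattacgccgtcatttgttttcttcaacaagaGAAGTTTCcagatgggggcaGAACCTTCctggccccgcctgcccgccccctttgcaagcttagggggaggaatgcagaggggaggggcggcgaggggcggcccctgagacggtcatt
Hspb3: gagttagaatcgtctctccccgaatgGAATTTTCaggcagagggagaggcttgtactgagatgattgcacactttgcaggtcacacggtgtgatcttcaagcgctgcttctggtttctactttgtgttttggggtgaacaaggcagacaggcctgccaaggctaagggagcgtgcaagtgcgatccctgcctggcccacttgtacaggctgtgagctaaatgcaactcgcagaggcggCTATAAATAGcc
Hspb6: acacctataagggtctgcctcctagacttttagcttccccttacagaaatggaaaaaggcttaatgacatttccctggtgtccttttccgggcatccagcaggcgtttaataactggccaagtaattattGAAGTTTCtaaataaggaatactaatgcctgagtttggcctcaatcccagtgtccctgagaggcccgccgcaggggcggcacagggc
Hspb7: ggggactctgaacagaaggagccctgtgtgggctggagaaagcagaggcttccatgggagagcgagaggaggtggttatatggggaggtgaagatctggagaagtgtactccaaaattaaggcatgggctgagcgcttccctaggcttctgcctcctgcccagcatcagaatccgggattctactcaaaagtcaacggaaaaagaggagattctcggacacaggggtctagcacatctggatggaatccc
Hspb8: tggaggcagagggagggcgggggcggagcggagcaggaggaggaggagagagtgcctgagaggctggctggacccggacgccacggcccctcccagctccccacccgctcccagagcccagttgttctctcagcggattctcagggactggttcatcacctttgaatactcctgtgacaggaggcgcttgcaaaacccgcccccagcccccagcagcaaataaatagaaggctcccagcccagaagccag

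Hspb1 holds GAANNTTC at 2 places, beginning 117 and 97 bases before the start, and Hspb3 holds it once, 224 bases before. The second RefSeq start of Hspb6, which lies near the start of its main transcript, has the same letters 120 bases before it and a TATAAA 29 bases before it, in the last 33 bases of the window, which GENCODE places inside that transcript and which are not printed. Hspb3 has a MEF2 site that begins 12 bases before the start and overlaps a TATAAA. Hspb7 and Hspb8 showed none of these letters in their windows, nor TTCNNGAA, CAGCTG or a CArG box, and each held the short E-box CANNTG once, 17 bases before the start in Hspb7 and 132 bases before it in Hspb8. Hspb1 and Hspb3 each held CANNTG at 2 places, 138 and 109 bases and 76 and 54 bases before the start, and the window of the first RefSeq start of Hspb6 held none of the motifs searched. Among 32851 mouse promoter windows of the same length, GAANNTTC was present in 6.69%, TTCNNGAA in 7.17%, TATAAA in 12.4%, the MEF2 site in 2.92%, CAGCTG in 13.0%, the CArG box in 1.47% and CANNTG in 66.2%. A match is a description of these letters and not evidence of binding, and no match says only that the letters are absent from the window.

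Libraries held 16168131 to 30742634 estimated counts, and the lowest value of any member in any library was 25.0 counts, for Hspb3 in WT myoblasts. CPM below is a gene's count relative to the scaled size of its library, and TPM is the deposited value per transcript length, summed per gene, which is the only scale used to compare members with each other. Glud1 did not separate the labels in CPM: WT myoblasts held 184 to 192 CPM and the KO-labelled ones 185 to 190, followed by 102 to 112 and 96.6 to 103 in differentiated myotubes, and 131 to 141 and 130 to 139 in fused myotubes. Its log2 fold changes of -0.016, -0.087 and -0.023 were not called, and they were called at -0.26, -0.31 and -0.34 when each library's effective transcript length entered the fit. The second was also called with library size only (-0.14, adjusted p = 0.0403). In deposited TPM, which also uses that length, the labels did not overlap, at 163 to 175 in WT against 136 to 142 in KO-labelled myoblasts, 79.5 to 86.2 against 58.9 to 64.5 in differentiated and 101 to 106 against 75.7 to 82.6 in fused myotubes. File names of WT and KO-labelled libraries alike contain the letters KO, the latter followed by a T, and what the T stands for is not stated. All 6 myogenic markers were detected, with summed CPM of 1761 to 1932 in WT myoblasts and 20064 to 22009 in WT fused myotubes. Markers of other cells of muscle tissue, 5 genes for each type, had these highest sums: the fibro-adipogenic sum reached at most 9.04 CPM, the endothelial 7.08, the Schwann cell sum 4.58 and the macrophage sum, nearly all Itgam at its highest, 28.0 CPM, and Lum, Csf1r, Sox10, S100b and all 5 adipocyte genes had at most 3 counts in every library. The smooth muscle list was nearly all Acta2, which cultured muscle precursors also express. In bulk RNA, fewer cells of a type and less RNA per cell cannot be told apart.

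Cryab had the highest mean TPM of the 7 members in every group, with Hspb1 close to it in KO-labelled myoblasts. In WT cells the deposited TPM summed over the 7 members was 666 ± 36.9 (SD, n = 3) in myoblasts, 2818 ± 56.5 (n = 3) in differentiated and 2376 ± 51.1 (n = 4) in fused myotubes. KO-labelled cells had 506 ± 4.17 (n = 3), 2697 ± 141 (n = 2) and 2513 ± 28.2 (n = 4). The sums did not overlap between the labels in myoblasts, at 625 to 697 against 502 to 509, or in fused myotubes, at 2328 to 2448 against 2476 to 2543, and they overlapped in differentiated myotubes. Cryab made up 48.7% ± 1.06 of the sum in WT myoblasts, 61.1% ± 1.07 in differentiated and 53.0% ± 1.27 in fused myotubes. In KO-labelled myoblasts Cryab held 44.6% ± 0.673 and Hspb1 43.1% ± 0.70, at 225 and 224 TPM in replicate 2. Hspb1 was the second member in each WT stage, and its share went from 39.3% ± 1.44 in myoblasts to 18.1% ± 1.17 and 16.1% ± 0.677. Hspb2, Hspb3, Hspb7 and Hspb8 together with Hspb6 filled the rest: in WT fused myotubes Hspb2 held 10%, Hspb8 7.97%, Hspb7 4.85%, Hspb3 4.64% and Hspb6 3.44%, whereas in WT myoblasts Hspb6 at 5.16% was the largest of these and Hspb3 at 0.406% and Hspb7 at 0.466% were the smallest. Per transcript length, the myoblast mixture was mostly Cryab and Hspb1, and in WT differentiated myotubes Hspb6 was the smallest part, at 0.873%.

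**Figure D1:**
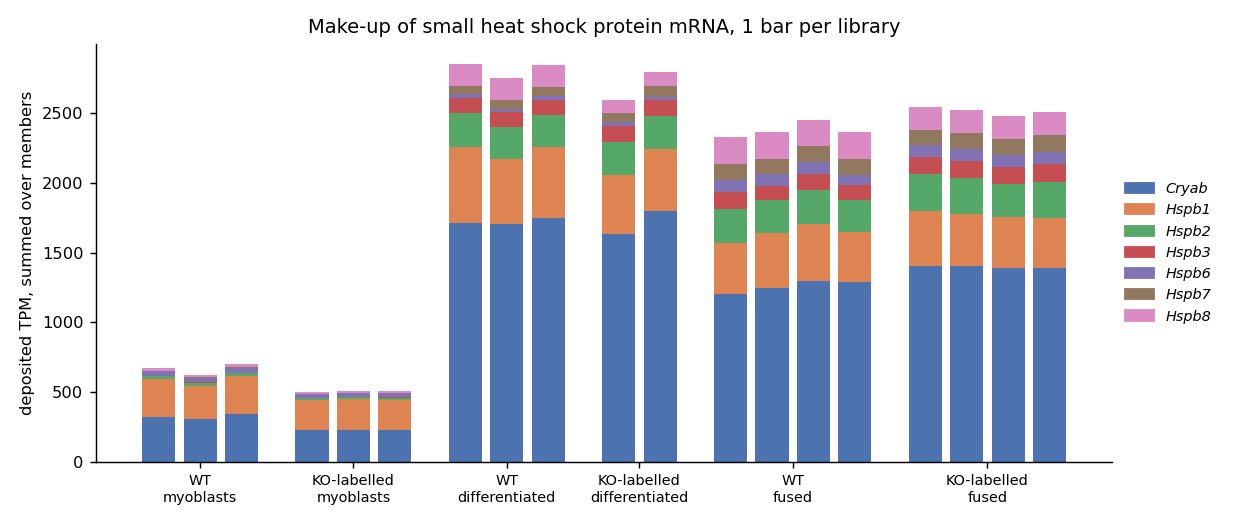
Deposited TPM (vertical axis) of the 7 members stacked in 1 bar per library, in the 6 groups. The bars stand at 502 to 697 TPM in myoblasts and at 2328 to 2855 TPM in both later stages, and Cryab is the tallest block in each.

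All 7 members had more mRNA in WT fused myotubes than in WT myoblasts, against 42.2% of all genes tested that were called higher there. Between WT myoblasts and differentiated myotubes 6 members rose, where 42.4% of genes did, and Hspb6 fell, as did 42.6%. From differentiated to fused WT myotubes 5 members rose (37.4% of all genes) and Cryab and Hspb1 fell (37.7%). The members' median log2 fold change from myoblasts to fused myotubes was 3.56, and the median over all genes tested was -0.013, with a median absolute change of 1.04. With library size as the only scaling, the median of all genes moved to -0.33, and the members kept their 7 calls with log2 fold changes of 0.48 for Hspb1 to 5.30 for Hspb3. Marker sums moved with the stages in WT cells. From myoblasts through differentiated to fused myotubes the myogenic list went from 1761 to 1932 CPM to 21192 to 24745 and 20064 to 22009, and the smooth muscle list from 1036 to 1076 to 2569 to 2856 and 459 to 530. In the same order the macrophage list, nearly all Itgam in myotubes, held 1.51 to 1.90, 15.5 to 18.5 and 8.49 to 10.3 CPM, the endothelial list 1.34 to 1.97, 5.50 to 6.05 and 2.28 to 2.74, the fibro-adipogenic list 8.39 to 9.04, 1.31 to 1.52 and 2.84 to 4.45, and the Schwann cell list 3.72 to 4.58, 1.94 to 2.87 and 0.371 to 0.731. Their part in the members' changes was not tested.

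Cryab, which chaperones desmin, titin and actin, measured 163, 147 and 167 CPM in the 3 WT myoblast libraries, 884, 876 and 926 in differentiated myotubes, and 664, 728, 769 and 752 in fused myotubes. The KO-labelled libraries held 113, 114 and 111 CPM, then 915 and 1047, then 827, 848, 844 and 790. It peaked at 48 h in both genotypes. In WT cells it rose 5.62-fold to 48 h (log2 2.49 ± 0.057 SE, adjusted p = 2.71e-24, edgeR quasi-likelihood test) and then fell by 0.30 on the log2 scale (adjusted p = 5.95e-06). In KO-labelled cells the rise was 8.71-fold (adjusted p = 1.05e-25) and the later change -0.25 (adjusted p = 3.56e-04), a fall that measured -0.14 with an adjusted p of 0.0685 without replicate 2 of the KO-labelled differentiated myotubes. From low to high, the group means ran from KO-labelled and WT myoblasts through WT and KO-labelled fused myotubes to WT and KO-labelled differentiated myotubes, and only the last 2 had overlapping values. In WT cells transcript Cryab-205 carried 84.8% ± 1.89 of the counts in myoblasts and 93.6% ± 0.876 in fused myotubes, so most counts in every WT stage came from 1 transcript.

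Hspb1, an actin-binding chaperone that stress kinases phosphorylate, had the smallest rise of the 6 members that rose at 48 h. WT libraries held 163, 135 and 157 CPM in myoblasts, 346, 296 and 324 in differentiated and 245, 272, 290 and 251 in fused myotubes. KO-labelled libraries held 125, 131 and 122, then 288 and 311, then 280, 268, 259 and 242 CPM. It rose 2.12-fold in WT (adjusted p = 1.88e-14) and 2.37-fold in KO-labelled cells (adjusted p = 7.61e-15) up to 48 h. It then fell by 0.29 in WT (adjusted p = 1.61e-04) and by 0.19 in KO-labelled cells (adjusted p = 0.0171) on the log2 scale. The KO-labelled fall was -0.13 (adjusted p = 0.211) without differentiated replicate 2 and -0.15 (adjusted p = 0.0557) without fused replicate 4. The 4 myotube groups overlapped with their neighbours in rank, and both myoblast groups lay apart from them. Cryab and Hspb1, the members with the highest TPM in myoblasts, both had their highest mean at 48 h.

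Hspb2 and Hspb3, partners in a muscle complex, started low and rose steeply. Hspb2 measured 6.75, 7.52 and 7.65 CPM in WT myoblasts, 112, 105 and 108 in differentiated and 124, 128, 136 and 124 in fused myotubes. In KO-labelled libraries it measured 4.96, 5.33 and 5.24, then 122 and 126, then 144, 145, 129 and 139 CPM. Its rise from myoblasts to fused myotubes was 17.5-fold in WT (log2 4.13 ± 0.060 SE) and 26.9-fold in KO-labelled cells (log2 4.75 ± 0.061). Hspb3 began at 0.984, 1.17 and 0.836 CPM in WT and 0.773, 1.01 and 1.11 in KO-labelled myoblasts. It then stood at 44.7, 43.6 and 43.6 CPM in WT and 51.1 and 51.9 in KO-labelled differentiated myotubes, and at 50.7, 47.1, 49.0 and 46.9 against 54.3, 55, 54.6 and 56.7 in fused myotubes. The rise from myoblasts to fused myotubes was 49.0-fold in WT (log2 5.62 ± 0.082) and 57.2-fold in KO-labelled cells (log2 5.84 ± 0.078), nearly all of it before 48 h. The last step was small: 1.18-fold for Hspb2 (adjusted p = 1.55e-05) and 1.10-fold for Hspb3 (adjusted p = 0.00574) in WT. Across 17 alternatives the WT Hspb2 step kept its call and measured 0.088 to 0.25 on the log2 scale. The WT Hspb3 step measured 0.042 to 0.072 on that scale and lost its call under 3 alternatives. These were library size only, protein-coding transcripts only and removal of length and GC trends. In KO-labelled cells the last step of Hspb3 was not called (log2 0.10, adjusted p = 0.0825), and that of Hspb2 was called at 0.16 (adjusted p = 0.00418) and measured 0.14 (adjusted p = 0.0509) without differentiated replicate 1. The KO-labelled Hspb2 step was also not called with the length offset (0.11, adjusted p = 0.0906), with protein-coding transcripts only (0.072, adjusted p = 0.199) or with length and GC trends removed (0.023, adjusted p = 0.592). Hspb2 values of WT fused myotubes overlapped those of both KO-labelled myotube groups, whereas for Hspb3 only the 2 myoblast groups overlapped.

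Hspb7, the filamin C-binding member, kept rising to the end. It measured 6.54, 6.57 and 7.32 CPM in WT myoblasts, 140, 151 and 157 in differentiated and 298, 299, 316 and 301 in fused myotubes. KO-labelled libraries held 3.78, 4.06 and 5.17, then 174 and 196, then 292, 305, 305 and 307 CPM. Every step lay outside the spread between libraries: 21.8-fold and then 2.03-fold in WT (adjusted p = 8.23e-28 and 7.71e-17), 42.8-fold and then 1.63-fold in KO-labelled cells (adjusted p = 8.63e-29 and 5.14e-12). From myoblasts to fused myotubes that came to 44.4-fold in WT and 70.0-fold in KO-labelled cells, the largest fold of any member under the KO label. The 2 fused groups overlapped and no other neighbours in rank did.

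Hspb8, the partner of Bag3, rose at both steps too. WT libraries held 24.8, 22.0 and 23.1 CPM in myoblasts, 212, 208 and 213 in differentiated and 265, 275, 274 and 290 in fused myotubes. KO-labelled libraries held 17.8, 17.5 and 18.2, then 140 and 155, then 248, 254, 248 and 242 CPM. The first step was 9.05-fold in WT and 8.24-fold in KO-labelled cells (adjusted p = 3.10e-28 and 6.76e-27), the second 1.31-fold and 1.68-fold (adjusted p = 6.38e-10 and 4.00e-14). No pair of neighbouring groups overlapped, and the WT value was the higher one at all 3 stages.

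Hspb6 took a course of its own among the 7 members. WT libraries held 33.8, 32.8 and 35.2 CPM in myoblasts, 25.6, 26.3 and 27 in differentiated and 98.9, 95.4, 105 and 83.7 in fused myotubes. KO-labelled libraries held 28.9, 29.1 and 29.7, then 26.3 and 29.9, then 101, 111, 108 and 103 CPM. In WT cells it fell by 0.37 on the log2 scale to 48 h (adjusted p = 1.78e-05) and then rose 3.62-fold (adjusted p = 5.22e-20). Across 16 alternatives the WT fall kept its call and measured -0.62 to -0.26. In KO-labelled cells the first step was not called (log2 -0.057, 95% interval -0.21 to 0.10, adjusted p = 0.504) and the second was a 3.77-fold rise. The KO-labelled first step changed sign with the scaling: it was 0.015 with DESeq2 size factors and it was called at -0.36 with library size only (adjusted p = 1.20e-04) and at -0.16 with length and GC trends removed (adjusted p = 0.0420). Differentiated groups of both labels overlapped each other and the KO-labelled ones overlapped the KO-labelled myoblasts, while the 2 fused groups, which overlapped each other, stood far above the rest. Transcript Hspb6-201 held on average 93.1% to 97.3% of the gene's counts, except for 83.2% ± 10.4 in the differentiated KO-labelled cells. That mean rests on 2 libraries, at 75.8% and 90.6%, and no test was run on it.

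**Figure D2:**
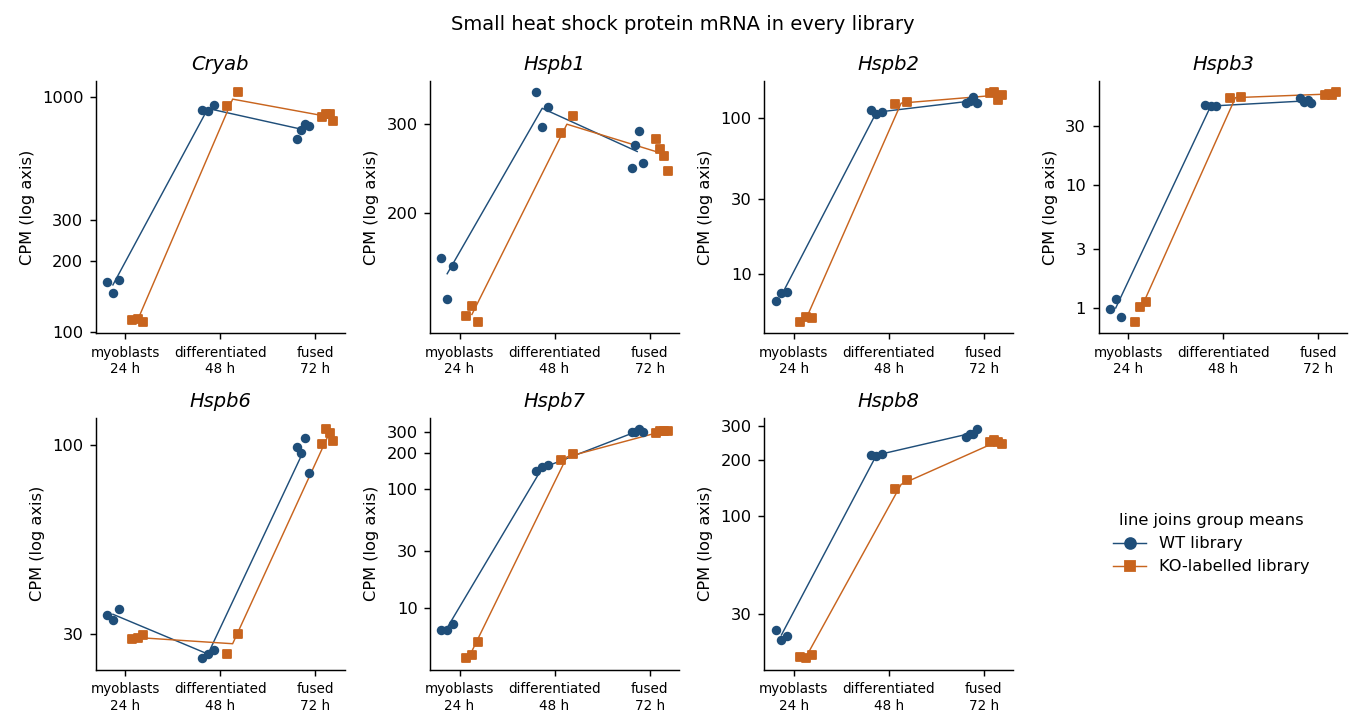
CPM of each member in every library (log axis, different ranges in each panel) against the stage, with circles for WT, squares for KO-labelled libraries and lines through the group means. Hspb2, Hspb3, Hspb7 and Hspb8 climb steeply by 48 h, Cryab and Hspb1 are highest at 48 h, and Hspb6 rises only between 48 h and 72 h.

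In KO-labelled cells 6 members rose from myoblasts to differentiated myotubes, beside 41.3% of all genes. From there to fused myotubes 4 members rose (35.8% of all genes) and 2 fell (34.4%). All 7 were higher in KO-labelled fused myotubes than in KO-labelled myoblasts, as were 42.7% of genes. The smallest of these rises was that of Hspb1 at 2.08-fold (log2 1.06 ± 0.064 SE) and the largest that of Hspb7. The myogenic markers summed to 1513 to 1577 CPM in KO-labelled myoblasts, 21391 to 23476 in differentiated and 19188 to 19791 in fused myotubes. In the same order the smooth muscle list summed to 1052 to 1085, 1916 to 2142 and 497 to 542 CPM, and the macrophage list to 1.15 to 1.92, 24.3 to 28.0 and 8.72 to 9.45 CPM. The endothelial list went from 1.24 to 1.38 CPM to 6.79 to 7.08 and back to 1.44 to 2.47, while the fibro-adipogenic list went from 5.01 to 5.84 CPM to 1.18 to 1.31 and 2.9 to 4, and the Schwann cell list from 2.72 to 3.7 CPM to 2.04 to 2.41 and 0.4 to 0.753. The part of these lists in the changes between stages was not tested.

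Cryab and Hspb2 are neighbours on chromosome 9 transcribed away from each other. In GENCODE M21 (GRCm38) Hspb2-201 starts at 50752293 on the minus strand and Cryab-205 at 50753020 on the plus strand, with 726 bases between the starts. Minor Cryab transcripts begin inside Hspb2, so the gene models overlap over 1030 bases, and because the use of strand in counting is not stated, reads from that overlap cannot be assigned to one gene with certainty. The overlapping Cryab-202 and Cryab-206 held 3.88% and 1.27% of Cryab counts in WT myoblasts, and 2.01% and 0.0397% in WT fused myotubes. In CPM these transcripts measured 6.15 ± 3.26 and 2.02 ± 0.211 in WT myoblasts, where all of Hspb2 held 7.31 ± 0.487. In KO-labelled myoblasts they measured 3.47 ± 2.55 and 1.27 ± 0.491, beside 5.18 ± 0.196 for Hspb2. How far reads of the overlap bear on the Hspb2 values and the ratio in myoblasts was not tested.

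Within a library the ratio of Cryab to Hspb2 counts does not depend on scaling. It was 21.8 ± 2.29 (SD, n = 3) in WT myoblasts, 8.25 ± 0.343 (n = 3) in differentiated and 5.69 ± 0.293 (n = 4) in fused myotubes, so Hspb2 gained on its neighbour at both steps and no 2 WT stages overlapped. The KO-labelled ratios were 21.7 ± 0.878 (n = 3), 7.89 ± 0.593 (n = 2) and 5.96 ± 0.400 (n = 4). Averaged over the 3 stages, the log2 ratio differed between the labels by -1.7e-04. The exact two-sided permutation test within stages gave p = 0.997 (14000 arrangements). The difference was -1.7e-04 in myoblasts, -0.065 in differentiated and 0.065 in fused myotubes, so the later stages offset each other in the average. Taken by stage, exact permutation gave p = 1.00 in myoblasts and p = 0.50 in differentiated myotubes, where the smallest possible p is 0.10, and p = 0.343 in fused myotubes, where it is 0.0286. A p of this size does not show that the ratios are equal. The ratio was lower at each later stage under both labels.

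Hspb2 also shifted between its annotated transcripts. The shorter Hspb2-202 (552 nt against 773 nt), which starts at 50752354, took 45.3% ± 1.77 of Hspb2 counts in WT myoblasts, 15.2% ± 0.659 in differentiated and 5.96% ± 0.416 in fused myotubes. The KO-labelled shares were 41.7% ± 7.44, 12.5% ± 0.388 and 6.29% ± 0.685. In CPM, Hspb2-201 went from 3.99 ± 0.229 to 92.0 ± 2.22 and 120 ± 5.87 in WT, whereas Hspb2-202 went from 3.32 ± 0.311 to 16.5 ± 1.18 and back to 7.61 ± 0.417. Most of the gene's gain in CPM was in Hspb2-201. These shares rest on reads that both transcripts share and that the authors' quantifier divided, and no test was run on them.

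**Figure D3:**
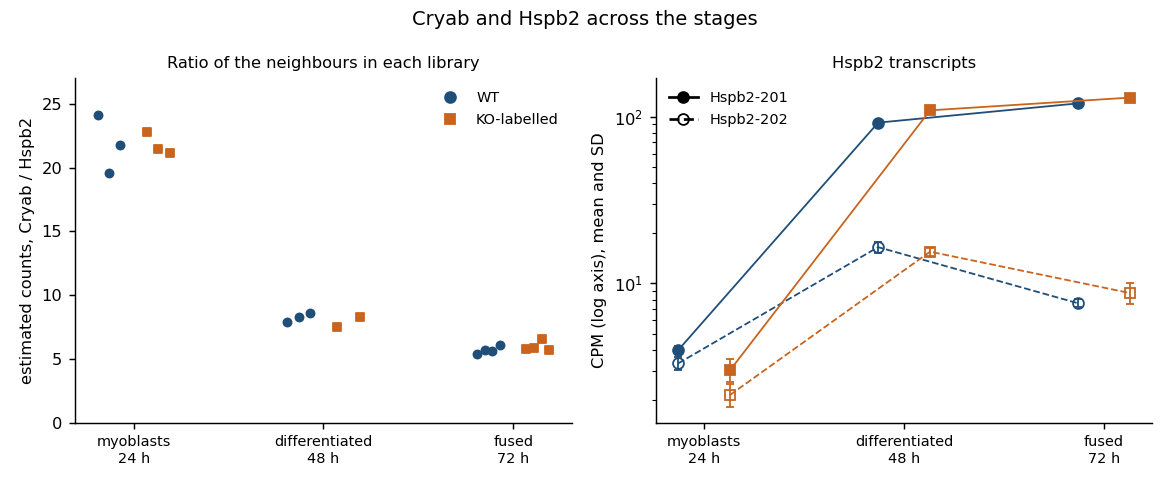
Left, the ratio of Cryab to Hspb2 estimated counts in every library against the stage; right, mean CPM of the 2 Hspb2 transcripts with SD (log axis), circles for WT and squares for KO-labelled cells. The ratio steps down from 19.5 to 24.1 in myoblasts to 5.36 to 6.55 in fused myotubes, and Hspb2-202 peaks at 48 h while Hspb2-201 does not decline.

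In proliferating myoblasts 6 of the 7 members were lower in KO-labelled than in WT cells, beside 6.69% of all genes tested that were called lower. Of the genes called in either direction there, 42.1% were higher, a share that was 29.3% with DESeq2 size factors and 53.2% with length and GC trends removed. The same 6, all except Hspb3, had CPM values that did not overlap between the labels in that direction, beside 15.2% of all genes. The members' median log2 fold change was -0.39 and that of all genes 0.014. Hspb7 was lowest relative to WT (log2 -0.66 ± 0.11 SE, adjusted p = 1.38e-04), followed by Cryab (-0.50 ± 0.057, adjusted p = 5.14e-07), Hspb2 (-0.50 ± 0.091, adjusted p = 4.40e-04) and Hspb8 (-0.39 ± 0.057, adjusted p = 2.83e-05). Hspb1 (-0.27, adjusted p = 0.00924) and Hspb6 (-0.22, adjusted p = 0.0281) had smaller differences. Hspb3 measured -0.035 (95% interval -0.48 to 0.41, from edgeR's own p, adjusted p = 0.949) on 25.0 to 34.0 counts per library. The Hspb1 call was lost when WT replicate 1 or 3 or KO-labelled replicate 3 was left out (log2 -0.25 to -0.21, adjusted p up to 0.0673). The Hspb6 call was lost when WT replicate 1 or 3 or any KO-labelled replicate was left out (-0.23 to -0.19, adjusted p up to 0.136). Neither was called with the length offset, where Hspb1 measured -0.25 (adjusted p = 0.0672) and Hspb6 -0.22 (adjusted p = 0.108). With protein-coding transcripts only, Hspb6 measured -0.22 and was not called (adjusted p = 0.101). The other 4 differences kept their calls in all alternatives run. The 6 myogenic markers, none of them at 0, summed to 1513 to 1577 CPM in KO-labelled and 1761 to 1932 in WT myoblasts. Among them Myh3, the embryonic myosin heavy chain, measured 112 to 119 against 210 to 233 CPM. The fibro-adipogenic list, with Lum at no more than 3 counts, summed to 5.01 to 5.84 against 8.39 to 9.04 CPM, and the Schwann cell list, with Sox10 and S100b at no more than 3 counts, to 2.72 to 3.7 against 3.72 to 4.58 CPM. The part of these lists in the members' differences was not tested.

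In differentiated myotubes the members split. Hspb2, Hspb3 and Hspb7 were higher in KO-labelled cells, where 11.0% of all genes were called higher, and Hspb8 was lower, where 14.1% were. The same 4 members had non-overlapping CPM values, beside 21.9% of all genes higher and 24.6% lower, with 2 libraries against 3. In deposited TPM Hspb2 overlapped, at 237 to 238 in KO-labelled and 225 to 241 in WT libraries. Hspb1 did not overlap on that scale, at 422 to 440 against 469 to 552. Hspb8 showed the largest difference, with 140 and 155 CPM against 208 to 213 (log2 -0.52 ± 0.047 SE, adjusted p = 3.61e-09, 1.43-fold lower). Hspb7 measured 0.31 ± 0.056 (adjusted p = 1.44e-04), Hspb3 0.23 ± 0.052 (adjusted p = 0.00172) and Hspb2 0.19 ± 0.050 (adjusted p = 0.00473) on the log2 scale. The Hspb2 difference was 0.17 and not called without KO-labelled replicate 2 (adjusted p = 0.0642) or with the length offset (adjusted p = 0.0612). Cryab at 0.13 (95% interval 0.016 to 0.25, adjusted p = 0.107), Hspb1 at -0.10 (-0.25 to 0.039, adjusted p = 0.328) and Hspb6 at 0.094 (-0.066 to 0.25, adjusted p = 0.444) were not called, and Cryab was called at 0.23 (adjusted p = 0.0216) without KO-labelled replicate 1 and Hspb1 at -0.14 (adjusted p = 0.0433) with length and GC trends removed. With 1 library left out, Cryab ranged from 0.031, without KO-labelled replicate 2, to 0.23, and Hspb1 from -0.16 to -0.043. The myogenic marker sums overlapped at this stage, at 21391 to 23476 CPM in KO-labelled and 21192 to 24745 in WT libraries. Among markers of other cells, the smooth muscle list, nearly all Acta2, summed to 1916 to 2142 against 2569 to 2856 CPM. The macrophage list, nearly all Itgam with Csf1r at no more than 3 counts, summed to 24.3 to 28.0 against 15.5 to 18.5 CPM, and the endothelial list, mostly Vwf, to 6.79 to 7.08 against 5.50 to 6.05 CPM. Their part in the members' differences was not tested.

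In fused myotubes the differences by genotype label were small. Cryab, Hspb2, Hspb3 and Hspb6 were called higher in KO-labelled cells, beside 6.32% of all genes, and Hspb8 was called lower, beside 6.72%. Cryab, at 790 to 848 against 664 to 769 CPM, was 1.14-fold higher (log2 0.18 ± 0.046 SE, adjusted p = 0.00833), and Hspb3, at 54.3 to 56.7 against 46.9 to 50.7, was also 1.14-fold higher (0.19 ± 0.041, adjusted p = 0.00264). These 2 did not overlap between the labels, as in 7.85% of all genes, and neither did Hspb8, which was 1.11-fold lower (-0.15 ± 0.035, adjusted p = 0.00337), as in 7.99%. Hspb2 (0.12, adjusted p = 0.0399) and Hspb6 (0.15, adjusted p = 0.0425) overlapped and lay close to the threshold. With a replicate block the adjusted p of Hspb2 was 0.0558, which leaves 4 called members. Hspb2 lost its call without WT replicate 1, 2 or 4 or KO-labelled replicate 1, 2 or 4 (0.10 to 0.12, adjusted p up to 0.146), and Hspb6 lost it without WT replicate 2 or 4 or KO-labelled replicate 2 or 3 (0.088 to 0.15, adjusted p up to 0.209). Neither was called when only the libraries compared were fitted (adjusted p = 0.0575 and 0.0542), with the length offset (0.138 and 0.212) or with protein-coding transcripts only (0.054 and 0.243), and Hspb2 was 0.076 (adjusted p = 0.0888) with length and GC trends removed. Hspb1 at -0.011 (95% interval -0.12 to 0.10) and Hspb7 at -0.005 (-0.087 to 0.078) were not called. The myogenic marker sums, 19188 to 19791 CPM in KO-labelled and 20064 to 22009 in WT libraries, did not overlap, and their part in these differences was not tested.

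**Figure D4:**
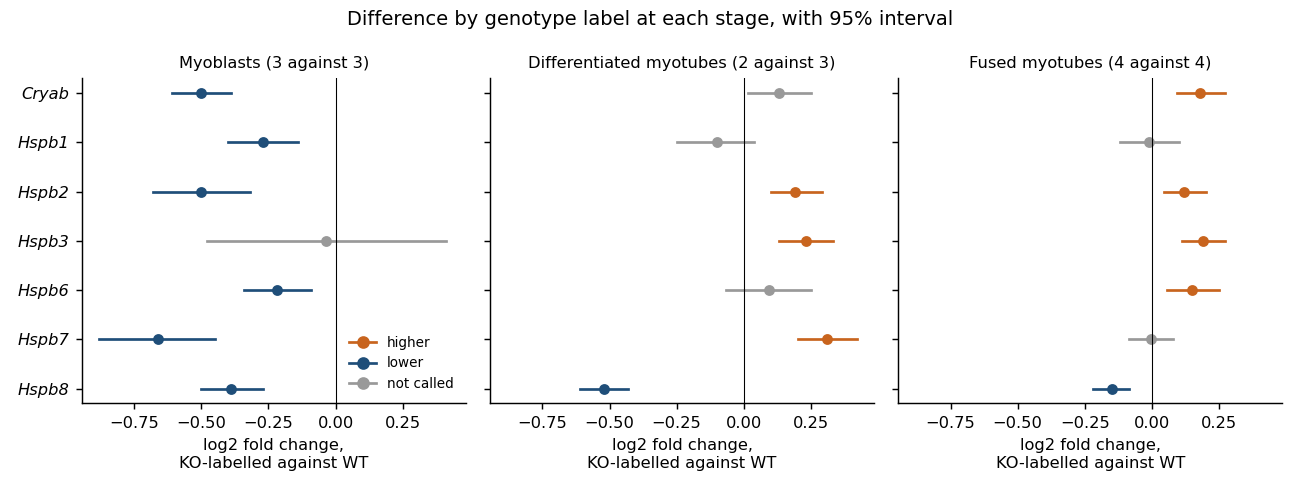
Log2 fold change of each member between KO-labelled and WT libraries (horizontal axis) at the 3 stages, with 95% intervals. Values lie at or below -0.22 in myoblasts for all members except Hspb3, and between -0.15 and 0.19 for all members in fused myotubes, with Hspb8 called lower at every stage.

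The effect of the genotype label was compared between stages by the interaction term of the same fit. Relative to myoblasts, the effect in differentiated myotubes was higher for 4 members, where 7.78% of all genes were called higher: Hspb7 by 0.97 ± 0.12 (SE, adjusted p = 1.75e-06), Hspb2 by 0.69 ± 0.10 (adjusted p = 2.02e-05), Cryab by 0.63 ± 0.082 (adjusted p = 2.39e-06) and Hspb6 by 0.31 ± 0.10 (adjusted p = 0.0360) on the log2 scale. The Hspb6 term lost its call without WT or KO-labelled myoblast replicate 1, WT myoblast replicate 3, KO-labelled myoblast replicate 2, WT differentiated replicate 1 or 2, or KO-labelled differentiated replicate 2 (0.21 to 0.32, adjusted p up to 0.286), and it was 0.17 (adjusted p = 0.411) with protein-coding transcripts only, 0.26 (adjusted p = 0.0819) with library size only and 0.29 (adjusted p = 0.12) with the length offset. Between myoblasts and fused myotubes 5 members shifted upwards, beside 5.75% of all genes: Cryab by 0.68, Hspb7 by 0.66, Hspb2 by 0.62, Hspb6 by 0.37 and Hspb8 by 0.23 (adjusted p = 4.10e-07, 4.23e-04, 1.14e-04, 0.00347 and 0.0256). The Hspb8 term lost its call without WT replicate 1 or 3 or KO-labelled replicate 1 or 2 of the myoblasts (0.18 to 0.24, adjusted p up to 0.115), and with the length offset (0.22, adjusted p = 0.0678). Hspb1, at 0.26 with an adjusted p of 0.0641, fell on the other side of the threshold and was called without WT myoblast replicate 2, WT fused replicate 3 or KO-labelled fused replicate 4 (0.29 to 0.33). The Hspb1 term was called in 8 of 24 alternatives, the others being DESeq2 (0.28, adjusted p = 0.0313), its size factors (adjusted p = 0.0447), no filter (adjusted p = 0.00117), a mean CPM of at least 1 (adjusted p = 0.0499) and trends removed (0.19, adjusted p = 0.0429). From differentiated to fused myotubes only Hspb8 (0.37 ± 0.058, adjusted p = 7.39e-05) and Hspb7 (-0.31 ± 0.070, adjusted p = 0.00272) had a called term, the first in the direction of 8.27% of genes and the second in that of 6.53%. The Hspb7 term was -0.23 (adjusted p = 0.0603) without KO-labelled differentiated replicate 2. The first term of Hspb8, -0.13 and not called (adjusted p = 0.223), was called at -0.19 (adjusted p = 0.0459) with library size only. The 3 terms share libraries and are not independent. Hspb7 was called lower in KO-labelled myoblasts and higher in differentiated myotubes, Cryab lower in myoblasts and higher in fused myotubes, and Hspb8 lower at all 3 stages.

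The genes whose centred log2 CPM profile over the 19 libraries lay nearest to each member were searched among 9925 genes with a mean CPM of at least 5. The nearest to Hspb2 were Smyd1, a myosin chaperone and methyltransferase (root mean square difference 0.0916), and Tnnt2, cardiac troponin T (0.105). Hspb7 lay nearest to Tnnt3, fast skeletal troponin T (0.0975), and Asb2 (0.112), and Hspb3 to Pdlim3, a Z-disc protein (0.193), and Prkg1 (0.195). Hspb8 was matched by Fhl1 (0.149) and the retinoid receptor gene Rxrg (0.197), Cryab by Myo18a (0.12) and Creld1 (0.122), Hspb1 by the alanine transaminase gene Gpt2 (0.10) and Thap3 (0.107), and Hspb6 by the phosphate transporter gene Slc20a2 (0.114) and Pold4 (0.127). Among the members themselves the closest pair was Hspb3 and Hspb7 (0.379), and Hspb6 was no closer than 0.870 to any other. With library size as the only scaling the same genes were nearest to each member, and only Pdlim3 and Prkg1 changed places. The profiles share the 19 libraries, and nearness says only that the values move alike over them.

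Other members of the family were scarce or went the other way. Cryaa and Hspb9 had no count in any library, Odf1 had at most 1, and Hspb11, a ciliary transport protein that is only loosely related, fell from 11.8 ± 1.35 CPM in WT myoblasts (n = 3) to 6.88 ± 0.924 in WT fused myotubes (n = 4; log2 -0.78, adjusted p = 1.07e-07). Among the 21 large heat shock proteins 7 rose and 12 fell between WT myoblasts and fused myotubes, where 42.2% of all genes were called higher and 43.4% lower, with a median log2 fold change of -0.16 against 3.56 for the members and -0.013 for all genes. Hspa1l rose most (2.82, from 0.539 ± 0.157 to 3.89 ± 0.432 CPM) and Hspa12a fell most (-2.75, from 33.1 ± 1.91 to 4.87 ± 0.302 CPM).

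Genes in the lists of co-chaperones changed in both directions, where 42.2% of all genes tested were called higher and 43.4% lower. Of 16 J-domain proteins, which deliver clients to HSP70, 11 rose and 5 fell in WT fused myotubes, led by Dnaja4 (log2 3.44, 10.9 ± 1.22 to 118 ± 4.82 CPM) and, downwards, Dnajb1 (-1.85, 51.9 ± 2.56 to 14.4 ± 0.372 CPM). Of 10 genes of the BAG family and chaperone-assisted autophagy, the route Hspb8 serves, 7 rose and 2 fell, with Synpo2, a Z-disc partner of Bag3, at 44.0 ± 1.55 and 471 ± 6.26 CPM (3.42) and Bag4 falling by 1.34. Bag3 itself rose by 0.79 (adjusted p = 1.27e-14), a value given because Bag3 is the partner of Hspb8. In the list of heat shock factors, 4 of 4 genes tested rose, namely Hsf1, Hsf2, Hsf4 and Hsbp1, which binds Hsf1, and Hsf4 rose most (2.55, 0.470 ± 0.0436 to 2.74 ± 0.359 CPM). Among 6 tested p38 and MAPKAP kinases, of a pathway that leads to phosphorylation of Hspb1, 4 rose and 1 fell, with Mapkapk3 at 2.18 and Mapk11 at -3.47.

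Clients and partners of the members included large changes in both directions, beside the same 42.2% of all genes called higher and 43.4% lower. Of 10 such genes 7 rose and 3 fell from WT myoblasts to fused myotubes (median 3.38), from Actn2, the Z-disc alpha-actinin, at 6.69 (35.3 ± 2.36 to 3640 ± 76.6 CPM) to Flna, the non-muscle filamin, at -7.74 (2175 ± 88.3 to 10 ± 1.41 CPM). Of 11 genes in the list of UNC45 and myosin chaperones, 2 rose, Unc45b by 5.54 (9.46 ± 1.41 to 443 ± 15.0 CPM) and Smyd1, while 7 fell, with Unc45a lowest at -1.05, and 6 of those 7 are subunits of the cytosolic chaperonin. The medians of these lists against the members are descriptions, and no test compared them.

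**Figure D5:**
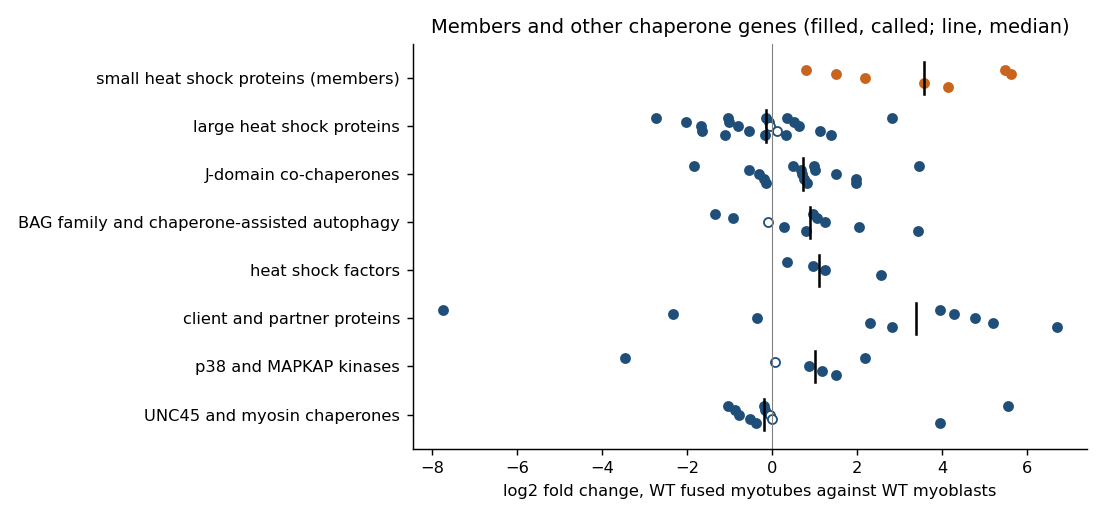
Log2 fold change from WT myoblasts to WT fused myotubes (horizontal axis) for the 7 members and 7 lists of other chaperone and client genes; each point is a gene, filled where called, and the line is the median. All 7 members lie to the right of 0, as do 4 of 4 genes of the heat shock factor list, whereas the large heat shock proteins spread to both sides.

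By genotype label, 6.69% of all genes tested were called lower and 4.86% higher in KO-labelled myoblasts. Of 10 client genes 6 were lower in KO-labelled myoblasts, none higher, with a median of -0.44, and Myom1, an M-band protein, differed most (-0.88, 19.1 ± 1.64 against 35.0 ± 2.32 CPM). Of 21 large heat shock proteins 2 were higher and 1 lower there, the lower one being Hspa2 (-0.37). Of 16 J-domain genes only Dnajb4 was called (-0.27, adjusted p = 9.41e-06). In the autophagy list 3 of 10 were lower, with Synpo at -0.74 (0.910 ± 0.139 against 1.54 ± 0.127 CPM), a call lost when WT replicate 2 (-0.68) or replicate 3 of the KO-labelled cells (-0.65) was left out, and with protein-coding transcripts only (-0.72, adjusted p = 0.0581). In the UNC45 list 2 were lower and 1 higher, Unc45b at -0.74 (5.74 ± 0.443 against 9.46 ± 1.41 CPM) and Smyd1 among the lower. By the edgeR test none of the 4 genes of the heat shock factor list and none of the 6 p38 and MAPKAP kinases was called in myoblasts.

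In KO-labelled differentiated myotubes 7 of 21 large heat shock proteins were lower and none higher, and in fused myotubes 5 were lower and none higher. Of all genes tested, 14.1% were called lower and 11.0% higher at the first of these stages and 6.72% and 6.32% at the second. Hsp90b1, the HSP90 of the endoplasmic reticulum, measured 569 ± 31.1 CPM (n = 2) against 921 ± 31.6 (n = 3) in differentiated myotubes (-0.70, adjusted p = 2.92e-11), and Hspa5, its HSP70 counterpart, 444 ± 16.4 against 591 ± 24.0 CPM (n = 4 each) in fused myotubes (-0.41, adjusted p = 1.59e-08). Dnajb9, a J-domain protein of the same compartment, was lower by 0.44 at both stages (adjusted p = 2.04e-05 and 1.03e-06), within 6 higher and 3 lower and then 2 higher and 3 lower of 16 J-domain genes. Bag1 was higher in differentiated myotubes (0.48, 335 ± 17.6 against 240 ± 17.4 CPM), where 1 of 10 in its list was higher and 1 lower, and Synpo in fused myotubes (0.67), where 1 was higher and 2 were lower. Flna was lower at both later stages (-2.02, 93.9 ± 6.46 against 382 ± 24.7 CPM; -1.01, 5.14 ± 0.670 against 10 ± 1.41 CPM), where 3 and then 1 of the 10 clients were lower and 1 was higher. The later Flna difference measured -1.51 to -0.44 across 18 alternatives, and it was -0.44 and not called with an offset for effective transcript length. Of the 4 genes tested in the heat shock factor list, the edgeR test called 2 higher in differentiated and none in fused myotubes. Hsf4 was called higher in differentiated myotubes (0.67, adjusted p = 0.0124, 4.31 ± 0.276 against 2.68 ± 0.587 CPM), a call lost when replicate 2 of WT (0.51) or of the KO-labelled cells (0.61) was left out, and with protein-coding transcripts only (0.32). Of the 6 p38 and MAPKAP kinases tested, 4 were called higher and 1 lower in differentiated myotubes, then 2 higher and 1 lower in fused myotubes. Mapk12, a p38 kinase of muscle, was among the higher at 48 h (0.42, adjusted p = 1.38e-04). Mapk11 was the lower one at 48 h (-0.67, adjusted p = 0.0289) on 1.14 ± 0.0535 against 1.81 ± 0.170 CPM, a call lost without WT replicate 1 or 3 or either KO-labelled replicate (-0.71 to -0.59), with the DESeq2 test (adjusted p = 0.0633), with no filter (0.0527) or with only the libraries compared (0.0815). Mapk12 was also higher at 72 h (0.21, 34.2 ± 0.612 against 29.7 ± 1.08 CPM), a call lost with the length offset (0.15) and with protein-coding transcripts only (0.28, adjusted p = 0.068). Of the 11 genes in the UNC45 list 2 were higher and 1 lower at 48 h, and 1 was higher at 72 h. Unc45b was higher at 48 h (0.32, 489 ± 29.5 against 392 ± 19.2 CPM) and Smyd1 at 72 h (0.14, 754 ± 6.52 against 684 ± 11.3 CPM).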

How the data were processed

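RNA was measured in 19 libraries of mouse primary myoblasts and myotubes. Per the submitters' processing notes, kallisto 0.46.1, fastp 0.20.0, bcl2fastq 2.20, edgeR 3.36 and build GRCm38.p6 were used. Per the file headers, the authors deposited an estimated count, a TPM value, a length and an effective length for each of 121843 transcripts. Use of strand is not given in the sources used here.

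From there, 121018 transcripts were matched to genes with GENCODE M21, and the 825 others, with 0.255% to 0.507% of the counts, were left out. Estimated counts were summed per gene and rounded to whole numbers. edgeR 4.0.16 (R 4.3.3) fitted all libraries with 1 coefficient per group after filterByExpr (minimum count 10) and TMM scaling, with quasi-likelihood tests and Benjamini-Hochberg adjustment over all 15123 genes and a threshold of 0.05, for 12 comparisons. CPM uses the TMM-scaled library size. SE is the absolute log2 fold change over the root of F, and 95% intervals use the normal multiple of the SE. In 3 comparisons of Hspb3 edgeR raised p above what F gives, and the interval printed for Hspb3 in myoblasts comes from that p. The common biological coefficient of variation was 4.03%, and replicate pairs differed by more than counting noise (chi-square per degree of freedom 2.14 to 7.66). The count ratio used a pseudocount of 0.5. The scripts were tested on simulated data.

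The members and the lists were chosen with earlier results of these data known. In each list and comparison, the list gene named was the called one with the largest change in each direction for WT fused myotubes against myoblasts, and the called one with the largest change for each genotype comparison, with any other named gene chosen after its values were seen. The alternatives were other scalings, filters, tests, transcript sets, a replicate block and each library left out. The nearest-profile distance with library size only was added after seeing the data. Replicate numbers did not pair the samples.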

Additional observations from a re-analysis of the deposited data

Results flagged for a closer look

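For 4 members the effect of the genotype label changed between myoblasts and differentiated myotubes by the interaction test: Hspb7 by 0.97, Hspb2 by 0.69, Cryab by 0.63 and Hspb6 by 0.31 on the log2 scale. Between myoblasts and fused myotubes it changed for Cryab by 0.68, Hspb7 by 0.66, Hspb2 by 0.62, Hspb6 by 0.37 and Hspb8 by 0.23. Between differentiated and fused myotubes it changed for Hspb8 by 0.37 and for Hspb7 by -0.31. Standard errors and adjusted p-values of these edgeR tests, and the libraries on which some calls rest, stand with the results above.

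Single libraries stood apart in 3 groups of 4 by Dixon's gap test at its 95% critical value. Among KO-labelled fused myotubes, Hspb7 had a lowest CPM of 292 (gap over range 0.869), Hspb2 a lowest TPM of 234 (0.866) and Hspb3 a highest TPM of 130 (0.928). Of 14 groups tested on each scale, 1 was marked in CPM and 2 in TPM, and chance marks about 1 in 20.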

How the results depend on the processing

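Across 29 alternatives, the values for single members kept direction and side of the threshold in 1418 cases, lost a call in 57, gained one in 13 and changed sign in 17. In fused myotubes the 5 called members became 3 when only the libraries compared were fitted, with an offset for effective length, or with protein-coding transcripts only, and 3 to 5 with 1 library left out. With a replicate block the count was 4, and Hspb2 (0.12, adjusted p = 0.0558) was the one call it removed among the members; same-numbered libraries deviated together no more (r -0.054 to 0.056) than others (-0.075 to 0.066). The interaction between fused and differentiated myotubes gave 1 to 2 called members with 1 library left out. The uncalled Cryab to Hspb2 difference by label became 0.015 in deposited TPM, 5.2e-05 with pseudocount 0 and -0.026 to 0.025 with 1 library left out; in myoblasts 0.026, 4.8e-04 and -0.077 to 0.075, and in differentiated myotubes -0.14 to 0.012. The cause was not tested.

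Other uncalled values changed sign: Hspb6 in differentiated myotubes with protein-coding transcripts (-0.049), Hspb6 from KO-labelled myoblasts to differentiated myotubes with DESeq2 or its size factors (0.015) or a mean CPM of at least 1 (0.013), the fused against differentiated term of Hspb3 with library size only (0.013), and Glud1 with protein-coding transcripts (0.063 in myoblasts, 0.068 in fused myotubes). All-gene calls by label numbered 1747 in myoblasts against 2625 with only the libraries compared, 1055 with protein-coding transcripts, 584 with the length offset and 925 to 1337 with 1 library left out. With the length offset they went from 3810 to 2149 in differentiated and from 1972 to 823 in fused myotubes, and the interaction terms from 2890 to 1454, 2238 to 981 and 1557 to 665 (differentiated against myoblasts, fused against differentiated, fused against myoblasts). With 1 library left out, these uncalled values spanned 0: Hspb3 in myoblasts (-0.15 to 0.11), Hspb6 in differentiated myotubes (-0.002 to 0.18), Hspb1 and Hspb7 in fused myotubes (-0.046 to 0.036 and -0.014 to 0.015), Hspb6 from KO-labelled myoblasts to differentiated myotubes (-0.16 to 0.020), and the fused against differentiated terms of Cryab (-0.045 to 0.15) and Hspb6 (-0.034 to 0.15). The share of called genes that was higher by label was 42.1% in myoblasts, against 27% with the DESeq2 test and 18.7% with the length offset, and 43.9% in differentiated myotubes, against 27% with library size only and 60.7% with length and GC trends removed. For the interaction terms in the same order, 40.7% became 26.3% (library size only), 50.8% (DESeq2 size factors), 52.5% (DESeq2) or 52.3% (trends removed), 55.9% became 75% (library size only) or 38.8% (trends removed), and 55.8% became 65.9% (DESeq2 or its size factors) or 66.9% (length offset). From KO-labelled myoblasts to differentiated myotubes 49.3% became 38.8% with library size only.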
